A study of Mus musculus with 12 samples.

Results

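The cells described here were picked from mouse lymph node single-cell RNA data by 3 genes of the vessel wall. A cell was taken when Rgs5, Notch3 and Abcc9 together gave at least 3 UMIs (molecular tags, 1 for each captured transcript), with no UMI of the endothelial genes Pecam1 and Cdh5 and none of the leukocyte genes Ptprc, Cd79a and Cd3e. The rule found 5465 of 95358 cells (5.73%). Within them, 1847 cells held 5 or more UMIs of Acta2 plus Myh11 and are called the Acta2/Myh11-high class, and the other 3618 are the low class. These 10 genes chose the cells, so their levels are description only and none of them was tested.

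The study had 12 libraries, 1 each for 2 genotypes at 3 treatments in 2 sorted fractions. All mice were C57BL/6 of 7 to 10 weeks with both Atg12 alleles floxed, and all received tamoxifen 5 times, the controls included. Cre-positive mice carried CreER under the endothelial Cdh5 promoter, so that Atg12, a gene of autophagosome formation, was targeted in endothelial cells and not in the vessel-wall cells themselves. Cre-negative mice lacked it. Inflammation was raised with 4% oxazolone, a contact sensitiser, in acetone and olive oil on the abdominal skin, with nodes collected at day 3 or at day 7. Vehicle mice received acetone and olive oil alone. Digested nodes were split on CD45 microbeads, and both parts were then sorted by flow. The unbound, endothelial part is titled CD31 and the bound, immune part CD45. The labels do not give the number of mice behind a library, so spread is between libraries. Values for the 6 libraries of a fraction are given in 1 order: vehicle Cre-negative, vehicle Cre-positive, day 3 Cre-negative, day 3 Cre-positive, day 7 Cre-negative, day 7 Cre-positive.

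Pericytes lie along capillaries and venules inside the endothelial basement membrane, and smooth muscle cells ring arterioles and larger veins. Endothelial Pdgfb recruits them through the receptor Pdgfrb, Notch3 keeps the smooth muscle state, Rgs5 dampens G protein signals, and Abcc9 with Kcnj8 forms a potassium channel that sets vessel tone. Lymph node stroma also contracts: reticular fibroblasts hold Acta2 and Pdgfrb beside the chemokines Ccl19, Ccl21a and Cxcl13 that place lymphocytes.

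Nearly all of the cells came from the fraction titled CD45. Its libraries held 560, 845, 1003, 853, 707 and 1297 of them, 5265 in all among 45341 cells. The CD31 libraries held 32, 33, 20, 27, 51 and 37, which is 200 among 50017 cells. A library total ranged from 36724887 to 76186801 UMIs. Before the exclusions, 7317 cells passed the 3-gene sum, and 1241 of these had a Pecam1 or Cdh5 UMI and 1061 a leukocyte UMI. Of 66 pairs of libraries, 2 shared 1 barcode each among the chosen cells. Xist was at 0.249 UMIs per 1000000 in the chosen cells of the vehicle Cre-positive CD45 library and at 0 in those of the matching CD31 library, against 143 to 523 in those of the other libraries. That library pair enters the genotype and treatment comparisons below.

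The name pericytes and vascular smooth muscle was checked against markers, and the 2 fractions gave different answers. In the CD45 libraries 4534 of 5265 cells (86.1%) had a UMI of Pdgfra, a fibroblast receptor, and between 99.2% and 99.9% per library had one of Dcn, the matrix proteoglycan decorin. For comparison, B cells of the same libraries had a Pdgfra UMI in 0.0909% to 1.10% and a Dcn UMI in 2.45% to 12.0%, at median depths of 2361 to 4018 UMIs against 5996 to 14458 in the chosen cells. With each cell thinned to 1000 UMIs, a Dcn UMI was found in 93.2% to 97.0% of the chosen cells. Only 17 CD45 cells (0.323%) lacked Pdgfra, Dcn and Lum. In the CD31 libraries 161 of 200 cells (80.5%) lacked all 3, by library 87.5%, 87.9%, 55.0%, 59.3%, 96.1% and 75.7%. The share was lowest in both day 3 libraries, where 35.0% and 25.9% of cells had a Pdgfra UMI, against 3.92% to 18.9% in the other 4. Entry through Abcc9 alone accounted for 727 CD45 cells (13.8%) and 3 CD31 cells. By CD45 library this share was 24.8%, 17.3%, 4.49%, 3.52%, 16.1% and 19.5%, lowest at day 3. An Rgs5 UMI was found in 62.7%, 67.0%, 90.1%, 91.3%, 70.2% and 68.2% of the chosen CD45 cells.

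So the data go against the name for the CD45 cells, which are called here by their rule, while most of the CD31 cells had no UMI of the 3 fibroblast genes. Outside mitochondrial and ribosomal genes, the leading genes of the CD45 cells after Malat1 were Apoe at 18400 CPM (UMIs per 1000000 of the summed cells) and Dcn at 9592. Fth1, Csmd1 and C3 came next, and then the chemokines Cxcl12, Ccl21a and Cxcl13 at 4585, 4318 and 4026. In the CD31 cells Apoe came after Malat1 as well, at 5263. Acta2 was at 3751, Tagln at 3164 and Rgs5 at 2498, and Acta2 and Rgs5 are genes of the rule. Dcn at 2033 and Ccl19 at 1939 were also among the 25 leading genes there. Fabp4, a lipid carrier of capillary endothelium and fat, was at 3574 to 7220 in the chosen CD31 cells and at 2452 to 4085 in the free RNA of those libraries, and its part in the CD31 values was not tested.

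**Figure D1:**
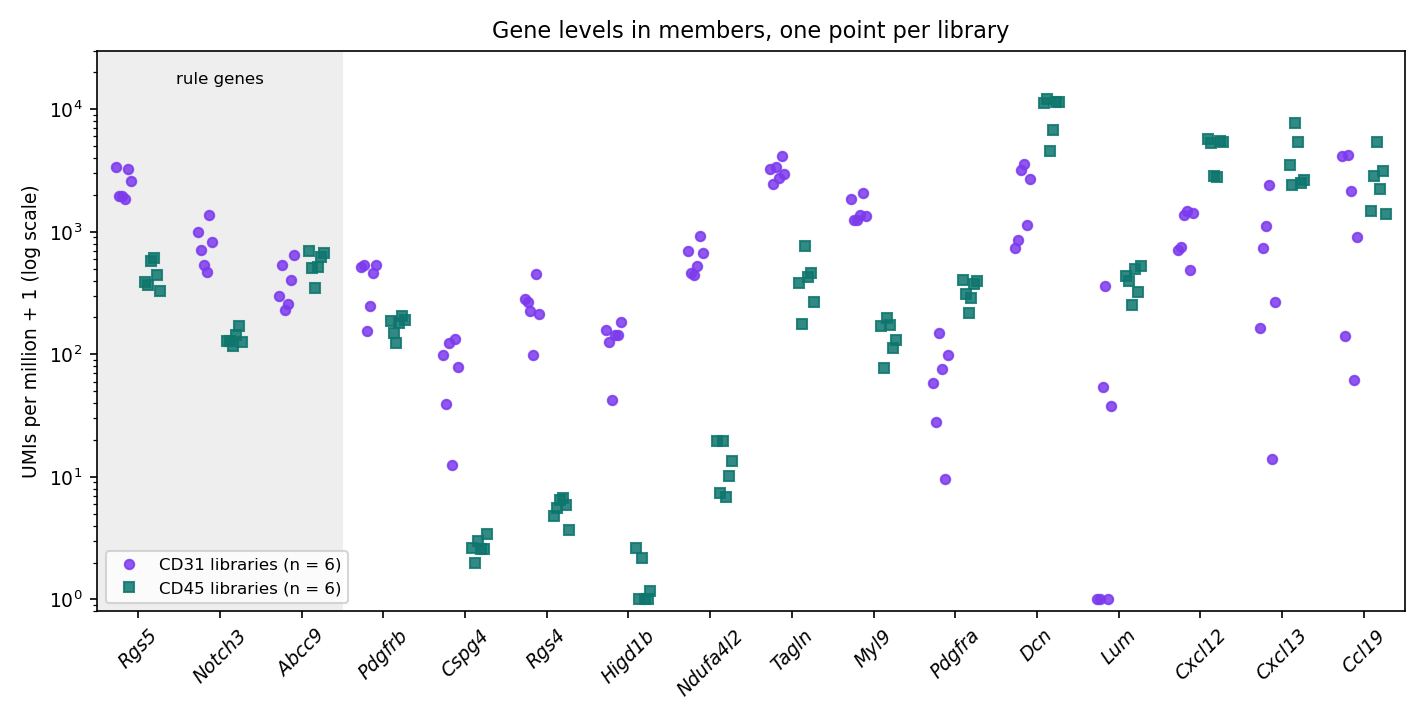
Levels of 16 genes in the Rgs5/Notch3/Abcc9 cells, 1 point for each library, as CPM plus 1 on a log axis; circles are the 6 CD31 libraries and squares the 6 CD45 libraries, and the shaded genes belong to the rule. Cspg4, Rgs4, Higd1b, Ndufa4l2, Tagln and Myl9 lie higher in every CD31 library than in any CD45 library, and Pdgfra, Dcn and Cxcl12 lie lower.

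Among the genes of the rule, Rgs5 stood at 389, 365, 574, 611, 447 and 327 CPM in the CD45 libraries and at 3382, 1975, 1963, 1838, 3251 and 2576 in the CD31 libraries. Notch3 stood at 115 to 168 and at 465 to 1360. Abcc9 was the exception, at 349 to 701 in CD45 and 229 to 647 in CD31. At the rule's border, 507 CD45 cells had exactly 3 UMIs of the 3 genes and 576 other cells had 2. Their Dcn was 12070 and 11922 CPM and their Ccl19 2022 and 1946. In CD31 13 cells had 3 and 20 had 2.

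The cells of the CD31 libraries were then compared with those of the CD45 libraries, with the 6 mouse groups (genotype and treatment) as blocks in edgeR's quasi-likelihood test. Of 11002 genes tested, 1971 passed an adjusted p of 0.05 (17.9%), 984 higher (8.94%) and 987 lower (8.97%). Of 26 pericyte genes 17 were higher in CD31 and 1 was lower, and of 24 reticular stroma genes 16 were lower. The median log2 change over all genes was -0.06. The comparison was added after the cell numbers had been seen.

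Of 26 pericyte genes tested, 17 were higher in CD31 and 1 lower, with a median log2 change of 1.90. Rgs4, which limits G protein signals as Rgs5 does (gene at chr1:169741477-169747642, GRCm38), stood at 283, 266, 223, 97.7, 452 and 213 CPM in CD31. In CD45 it stood at 3.77, 4.60, 5.46, 5.75, 4.89 and 2.65. The ranges do not overlap, and the log2 change was 5.65 (SE 0.26, adjusted p 1.18e-11). Cspg4, the NG2 proteoglycan by which pericytes are stained, was at 11.5 to 134 against 0.995 to 2.40 (log2 change 5.31, SE 0.39). Ndufa4l2, a mitochondrial subunit induced by low oxygen, was at 441 to 921 against 5.91 to 18.7. Higd1b, a capillary pericyte gene, was at 41.1 to 184 against 0 to 1.61.

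Pdgfrb itself was closer between the fractions: 519, 537, 153, 247, 461 and 536 in CD31 against 186, 149, 122, 179, 206 and 191 in CD45. The 2 lowest CD31 values were those of day 3, and 1 of them fell inside the CD45 range. The log2 change was 1.10 (SE 0.19, adjusted p 0.000329). Kcnj8, the channel pore that pairs with Abcc9, spanned 112 to 274 in CD31 and 119 to 198 in CD45, and Vtn (vitronectin) 176 to 375 and 180 to 378, so both ranges overlapped. Steap4, a metalloreductase, was the pericyte gene that was lower, with a log2 change of -0.49 (SE 0.17, adjusted p 0.0479), and it passed in 4 of 9 alternatives.

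Of 22 contractile genes tested, 20 were higher in CD31 and none was lower. Tagln (transgelin, an actin binder of smooth muscle, chr9:45929619-45936058) stood at 3261, 2431, 3404, 2769, 4163 and 2957 in CD31 and at 380, 175, 762, 426, 458 and 266 in CD45, with a log2 change of 3.00 (SE 0.20). Myl9, the regulatory myosin light chain, differed by 3.38 (SE 0.20), Tpm2, a tropomyosin, by 2.92 (SE 0.23), and Lmod1, which seeds actin filaments in muscle, by 3.90 (SE 0.20). Casq2, a calcium store protein of muscle, was at 35.3 to 103 in CD31 and at 0 to 0.225 in CD45. The groups do not overlap for any of these 5 genes. The 5 were picked for naming, and the share of all tested genes without overlap is not given. The lack of overlap therefore describes these genes only, not the contractile list.

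Receptors and channels of vascular tone were higher for 19 of 25 genes, with 1 lower. Ednra, the endothelin receptor, was at 340, 217, 124, 121, 439 and 295 in CD31 and at 16.8 to 36.3 in CD45 (log2 change 3.18, SE 0.26). Trpc6, a calcium-permeable channel, was at 47.0 to 207 against 0.158 to 27.9, where the highest CD45 value came from the vehicle Cre-positive library. Of 12 Notch pathway genes (receptors, ligands, cofactors and targets together), 7 were higher and 1 lower. Heyl, a target of Notch3, differed by 2.36 (SE 0.32), and Nrarp, a feedback inhibitor of Notch, stood at 57.5 to 198 against 0 to 1.27.

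Of the 24 reticular stroma genes none was higher in CD31, and of 25 fibrillar matrix genes 15 were lower and 1 higher. Cxcl13, which draws B cells, was at 162, 732, 1117, 2413, 12.9 and 266 in CD31 and at 3527, 2411, 7686, 5373, 2523 and 2635 in CD45 (log2 change -3.15, SE 0.46). The day 3 Cre-positive CD31 value lies just above the lowest CD45 value. Cxcl12 differed by -2.27 (SE 0.30) and Dcn by -2.50 (SE 0.40). Ccl19, which draws T cells, spanned 60.3 to 4238 in CD31 and 1407 to 5417 in CD45, and its difference did not pass (adjusted p 0.224). Of 31 genes of vessel signalling (growth factors, receptors and junction genes among them), 15 were higher and 5 lower. Angpt1, the ligand by which pericytes act on endothelial Tek, differed by 1.92 (SE 0.20) and Pdgfa by 2.56 (SE 0.17), while Hgf differed by -2.78 (SE 0.36) and Vegfa by -1.66 (SE 0.24).

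The same comparison among cells without a Pdgfra UMI gave 1375 of 5135 genes (26.8%), with 19 of 20 contractile genes higher and 16 of 20 reticular genes lower. The CD45 cells without a Pdgfra UMI held Dcn at 4569 to 11730 CPM and Higd1b at 0 to 7.86. The CD31 cells came with endothelial sorting and free RNA of endothelial cells: their summed blood endothelial markers were at 253 to 840 against 3460 to 5216 in free RNA, and at 152 to 196 in the chosen CD45 cells. Of 8 blood endothelial markers tested, 4 were higher in CD31 and none was lower. Fabp4 moved with them, at 3574 to 7220 in CD31 and 0.394 to 19.0 in CD45. The part of sorting and of free RNA in these differences was not tested.

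The share of cells that met the rule in the CD45 libraries was 6.62%, 13.5%, 12.1%, 14.3%, 9.25% and 14.9%. It was higher with Cre at each of the 3 treatments, by 4.86 points on average (SD 2.45, n = 3 pairs). The exact two-sided permutation p was 0.25, which is the smallest that 3 pairs allow, and 0.667 after adjustment over 4 tests. In the CD31 libraries the share ran from 0.232% to 0.633%. The bead step and the sort can set these shares, and fewer cells of a kind and a lower yield cannot be told apart.

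Within the chosen CD45 cells, the Acta2/Myh11-high class made up 20.2%, 12.9%, 65.3% and 57.3% at vehicle and day 3, and 99 of 707 cells and 18.5% at day 7. Both day 3 libraries stand far above the other 4, which do not exceed 20.2%. The exact 95% intervals (Clopper-Pearson, counting error only) were 62.3% to 68.3% and 53.9% to 60.7% at day 3, and 16.9% to 23.7% and 10.7% to 15.3% at vehicle. Day 3 exceeded vehicle by 45.1 points without Cre and 44.4 with it. Median depth moved with this share: it was 13054 and 14458 UMIs at day 3 against 5996 to 8839 in the other CD45 libraries. Measures that lessen the weight of depth gave smaller differences, but the cells were still chosen at full depth, so neither is free of it. With cells thinned to 1000 UMIs and 1 or more UMI of the pair required, the difference averaged 26.3 points. With 0.1% of a cell's UMIs required, the shares were 11.8%, 4.38%, 37.0%, 24.4%, 8.63% and 8.25%, and the difference averaged 22.6 points.

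Acta2, which helps to define the class, stood at 413, 137, 1190, 729, 292 and 240 CPM in the CD45 cells, highest in both day 3 libraries, and in their free RNA at 67.2, 55.3, 335, 179, 43.9 and 68.3. Acta2 in B cells of these libraries was at 0.888 to 9.99. Myh11, the myosin heavy chain of mature smooth muscle, was flat by comparison at 95.8, 73.9, 81.0, 73.8, 84.8 and 102. Acta2 was thus the gene of the pair that was higher at day 3. In CD31 the high class made up 78.1%, 57.6%, 80.0%, 66.7%, 68.6% and 78.4%, with intervals as wide as 56.3% to 94.3%. Genotype (Cre-positive minus Cre-negative) differed by -3.59 points in CD45 (SD 7.01, n = 3 pairs, exact permutation p 0.5). In CD45 it was -7.45 thinned and -6.80 at 0.1% of UMIs, with all 3 pairs negative in both (exact permutation p 0.25, the smallest that 3 pairs allow). In CD31 it differed by -8.04 (SD 15.8, exact permutation p 0.5), and by -1.25 with a member threshold of 5 UMIs.

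**Figure D2:**
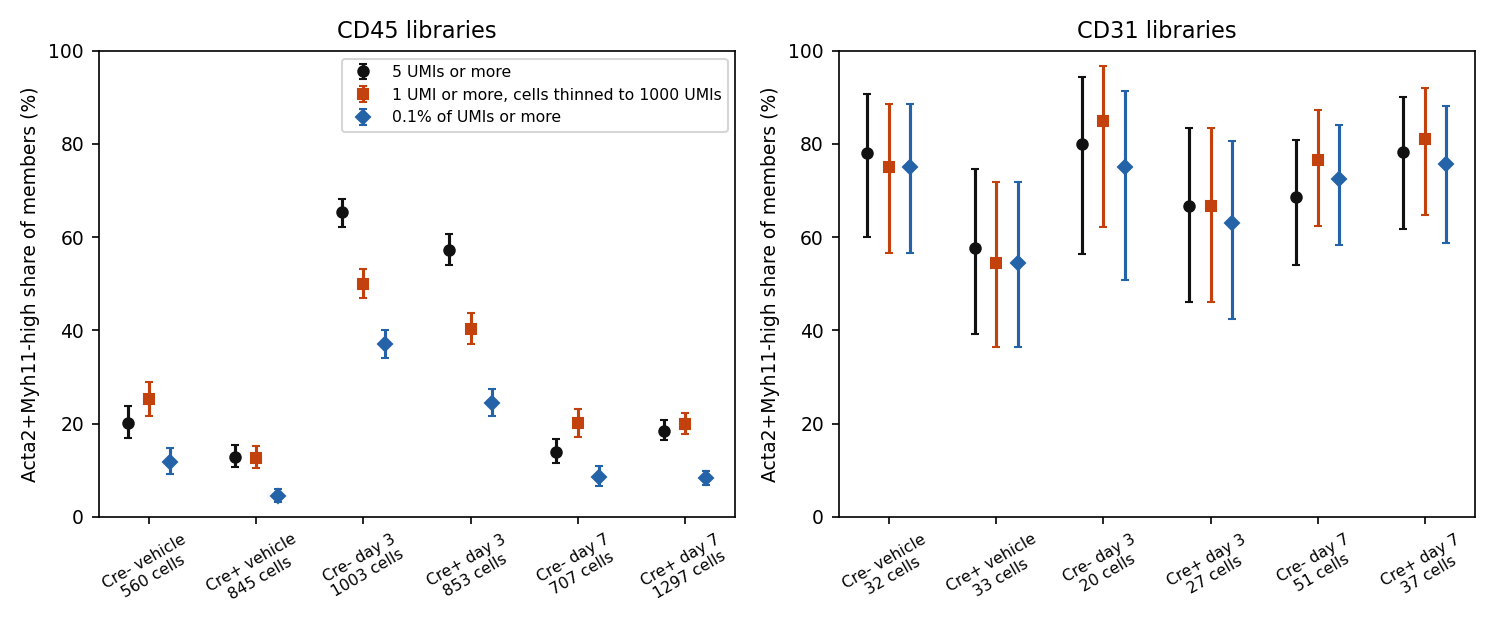
Share of the Rgs5/Notch3/Abcc9 cells in the Acta2/Myh11-high class in percent, by library, for the CD45 fraction and the CD31 fraction; points use 5 UMIs, cells thinned to 1000 UMIs, or 0.1% of a cell's UMIs, and bars are exact 95% intervals. In the CD45 fraction the 2 day 3 libraries are the highest by each of the 3 measures.

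The high class was compared with the low class inside each CD45 library, with the library as block in edgeR. Of 11938 genes tested, 2334 passed (19.6%), 1286 higher (10.8%) and 1048 lower (8.78%), with an all-gene median of 0.00. A UMI threshold takes deeper cells: the high class had 7680 to 15806 median UMIs and the low class 5792 to 12390. At 0.1% of a cell's UMIs, 1034 genes passed (8.63%; 4.44% higher, 4.19% lower) and 886 of these were also called in the same direction above. Among cells without a Pdgfra UMI, 157 of 5862 passed (2.68%; 1.25% higher, 1.43% lower), and without the library block 187. The 4 high endothelial markers summed to 45.8, 153, 99.4, 39.2, 30.3 and 39.9 CPM in the high class and to 22.3, 13.9, 17.3, 2.63, 9.45 and 27.1 in the low class, against 40.0 to 229 in free RNA. They were higher in the high class in all 6 CD45 libraries, both of the 2 tested were called, and their part was not tested.

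Of 20 contractile genes tested, 17 were higher, 1 was lower, and the median log2 change was 0.57. Tagln stood at 1072, 580, 963, 609, 1476 and 734 in the high class and at 130, 103, 200, 102, 240 and 125 in the low class. The classes do not overlap, and the log2 change was 2.58 (SE 0.08, adjusted p 7.19e-11). At the border of the classes the cells were alike. The 211 CD45 cells with exactly 5 UMIs of Acta2 plus Myh11 had Tagln at 254 CPM and Dcn at 6507. The 227 with 4 had them at 275 and 7326. Tpm2 stood at 262 to 536 against 92.8 to 210 (log2 change 1.58, SE 0.06). Myl9 followed at 154 to 258 against 63.0 to 139 (1.09, SE 0.08) and Tpm1 at 385 to 554 against 166 to 303 (1.00, SE 0.08). Smaller rises were those of Myl6, the essential light chain (0.62, SE 0.07), Mylk, the kinase that starts contraction (0.58, SE 0.09), Cald1 (0.56, SE 0.07) and the filament gene Des (0.38, SE 0.07). Itga8, an integrin of muscle and mesenchyme, was the one that was lower (-0.89, SE 0.17).

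Contractile genes are commonly switched on by serum response factor, which binds the CArG box, so promoters were searched on both strands for a strict CArG box. Of 28 listed contractile genes, 22 were matched to a promoter in RefSeq (GRCm38.p6), and Tagln was not searched. Of the 22, 2 held a box (9.09%), against 488 of 27025 genes (1.81%). Both belong to light chains of myosin that were higher in the high class, and they are shown for that reason, 5' to 3' on the gene's strand with the box in capitals. The Myl9 promoter is chr2:156775214-156775513 on the plus strand, with its box starting at -161 from the start site. Myl6 has a pair of promoters in the table. The one shown is chr10:128492960-128493259 on the minus strand, with its box at -50, and the other, chr10:128493837-128494136, held none. A match describes letters and is no evidence of binding.
Myl9: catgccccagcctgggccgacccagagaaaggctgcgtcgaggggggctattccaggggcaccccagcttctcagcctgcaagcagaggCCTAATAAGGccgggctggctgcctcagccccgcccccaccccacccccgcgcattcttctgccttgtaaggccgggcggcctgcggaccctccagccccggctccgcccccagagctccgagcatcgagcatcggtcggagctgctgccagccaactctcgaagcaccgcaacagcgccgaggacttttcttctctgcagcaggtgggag
Myl6: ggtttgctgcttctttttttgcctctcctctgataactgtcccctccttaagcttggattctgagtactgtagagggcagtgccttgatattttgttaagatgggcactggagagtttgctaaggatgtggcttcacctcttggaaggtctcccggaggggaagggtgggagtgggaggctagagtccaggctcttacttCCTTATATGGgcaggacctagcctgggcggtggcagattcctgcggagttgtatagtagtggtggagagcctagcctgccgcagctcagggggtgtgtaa

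Of 23 pericyte genes, 8 were higher in the high class and 5 lower. Mcam, an adhesion molecule of vessel walls, was at 4.95 to 23.4 against 1.08 to 2.67 (log2 change 2.17, SE 0.37), Gja4, a gap junction subunit, at 21.5 to 49.7 against 7.13 to 25.8 (1.56, SE 0.25), and Mfge8, a bridge for dying cells, at 2823 to 3759 against 913 to 2609 (1.11, SE 0.14). Cd248, an antigen of mesenchyme, was lower (-0.81, SE 0.09), as were Steap4 (-0.72, SE 0.10) and Anpep (-1.26, SE 0.14).

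Reticular genes split. Of 24 tested, 10 were higher and 4 lower, and at 0.1% of UMIs 4 were higher and 4 lower. Cxcl13 (chr5:95956951-95961068) stood at 5493, 5419, 7582, 5721, 4828 and 6228 in the high class and at 2820, 1877, 7976, 4753, 2030 and 1552 in the low class. It was higher in 5 of 6 libraries, all but day 3 Cre-negative, and the log2 change was 0.99 (SE 0.19, adjusted p 0.00223). Clu (clusterin, a secreted chaperone, chr14:65968483-65981547) stood at 3473 to 4756 against 1932 to 2982 (0.92, SE 0.08), and Ccl19 at 1785 to 5848 against 1211 to 4211 (0.78, SE 0.09). Bst1 (1.05, SE 0.10), Tnfsf11, the RANKL of stromal organisers (0.87, SE 0.16), and Ch25h, which starts an oxysterol that guides B cells (1.51, SE 0.24), were higher too. Cxcl12, Il7 and Tnfsf13b, 3 survival and homing signals, were lower by -0.73 (SE 0.07), -0.45 (SE 0.07) and -0.46 (SE 0.09).

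Of 25 fibrillar matrix genes, 12 were lower and 3 higher, and of 16 basement membrane genes 7 were lower and 1 higher. Dcn stood at 6653, 7351, 3914, 5754, 5488 and 6609 in the high class and at 13020, 12880, 6302, 8485, 12700 and 12930 in the low class (-0.87, SE 0.09). Within each library the high class was lower, but the day 3 Cre-negative low-class value lies inside the range of the high class. Lum differed by -1.56 (SE 0.10), Fbln1 by -1.68 (SE 0.18), Lama2 by -1.51 (SE 0.19) and Cd34, a marker of adventitial fibroblasts, by -1.48 (SE 0.15). Tnc, a matrix protein of remodelling tissue, went the other way at 104 to 172 against 54.9 to 84.4 (1.08, SE 0.08).

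Of 20 cell cycle genes, 14 were higher and none lower, and at 0.1% of UMIs 4 of 19 were higher and 1 lower. Stmn1, a tubulin regulator, stood at 167, 19.0, 378, 239, 51.8 and 130 in the high class and at 36.2, 13.3, 208, 96.2, 21.1 and 35.6 in the low class (1.39, SE 0.14). Mki67 was at 0.825 to 72.7 against 0.439 to 50.5 (1.72, SE 0.41). Of 21 stress and immediate-early genes, 12 were lower and none higher. Klf4 differed by -1.36 (SE 0.10) and Fos by -0.60 (SE 0.07). By size, outside the lists, the highest rises were those of Colq (2.22, SE 0.27), Fabp7 (2.21, SE 0.14) and Fabp5 (2.20, SE 0.26). The lowest were Prlr, the prolactin receptor (-2.83, SE 0.31), Cyp2f2 (-2.26, SE 0.23), Efemp1 (-2.07, SE 0.14), Apod (-1.91, SE 0.11) and Fgf10 (-1.82, SE 0.09). Prlr in the low class was at 179 in the vehicle Cre-positive library and at 9.66 to 43.2 in the other 5. The 8 epithelial and mesothelial markers summed to 332 CPM in the low class of that library and to 0.219 to 127 in the other 5, and their part was not tested.

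**Figure D3:**
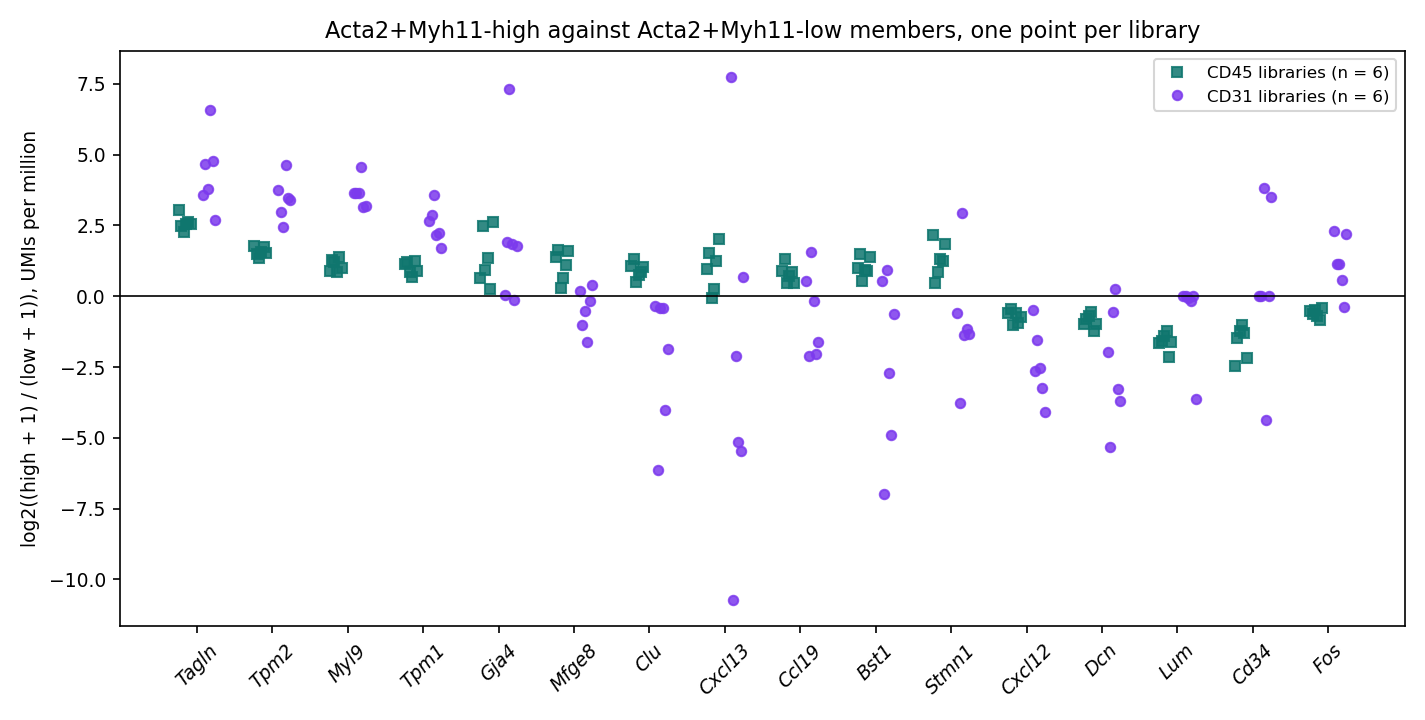
Log2 ratio of the Acta2/Myh11-high to the low class in CPM plus 1, for 16 genes and 1 point per library; squares are CD45 libraries and circles CD31 libraries. Tagln, Tpm2, Myl9 and Tpm1 are above 0 in all 12 libraries, while Clu is above 0 in all 6 CD45 libraries and below 0 in all 6 CD31 libraries.

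Only 2 CD31 libraries had 10 cells in each class, and they called 187 of 1945 genes (9.61%; 4.83% higher, 4.78% lower). A fit of all 6 with at least 4 cells per class was therefore added, and called 229 of 1587 genes (14.4%; 7.18% higher, 7.25% lower). Of 17 contractile genes 12 were higher and none lower, with a median log2 change of 2.10. Tagln stood at 4197, 4146, 3777, 3887, 5865 and 3577 in the high class and at 355, 164, 276, 39.5, 215 and 558 in the low class (4.06, SE 0.39). Myl9 differed by 3.49 (SE 0.24) and Tpm2 by 3.36 (SE 0.26). Ctnna3, a junction catenin of muscle, was at 217 to 1405 against 0 to 243 (4.12, SE 0.57), and Nrip2 (3.78, SE 0.53), Sncg (3.51, SE 0.47) and Pcp4l1 (3.48, SE 0.46) were higher as well.

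Of 11 reticular genes tested there, none was higher and 4 were lower, and Ccl21a, a T zone chemokine, stood at 1618, 0, 1763, 1271, 18.5 and 46.4 in the high class against 12100, 642, 8386, 4921, 415 and 6122 in the low class (-3.63, SE 0.61). The 4 high endothelial markers summed to 71.0, 7105, 1048, 3241, 4004 and 59.8 CPM in the low class against 336, 9.53, 132, 8.10, 111 and 25.8 in the high class. They were higher in the low class in 5 of 6 libraries, and their part was not tested. Apoe (-2.55, SE 0.58) and C3 (-2.57, SE 0.62) were lower, and both met the naming rule by size, which requires 1 direction in all 6 libraries. Dcn (-2.38, SE 0.60), not named by that rule, was lower in 5 of 6. Clu differed by -1.93 and Cxcl13 by -2.49, opposite in sign to CD45, and neither passed. Of 1575 genes tested in both fractions, 621 were called in CD45 and 224 in CD31. They shared 119, which is 19.2% and 53.1% of the lists, and 91 of the 119 had the same direction. The 19.2% is to be read against the 224 of 1575 genes called in CD31. The 53.1% is to be read against the 621 of 1575 called in CD45. Whether the overlap exceeds these background shares was not tested. The difference between fractions was not itself tested.

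Stroma outside the rule was taken as cells with 3 or more UMIs of Pdgfra, Dcn and Lum and fewer than 3 of Rgs5, Notch3 and Abcc9. Whether they are the stroma most like the chosen cells was not tested. The CD45 libraries held 722, 596, 361, 176, 391 and 473 of them, at median depths of 4358 to 8794 UMIs, below the chosen cells in each library. The comparison called 4802 of 12278 genes (39.1%), with 18.6% higher and 20.5% lower in the chosen cells. Because a UMI threshold sorted the 2 sets, depth and rule cannot be told apart in it, and it describes where the sets differ.

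The chosen CD45 cells were higher in 17 of 24 reticular genes (3 lower), in 13 of 19 contractile genes (2 lower) and in 12 of 23 pericyte genes (6 lower). Tnfsf11 (chr14:78277445-78308043) stood at 130, 62.5, 207, 189, 77.2 and 133 against 4.39, 9.30, 18.2, 4.31, 14.1 and 7.26, with no overlap (log2 change 3.69, SE 0.28). Grem1, a BMP antagonist, was at 92.2 to 217 against 10.5 to 31.5 (2.60, SE 0.17), Cxcl13 at 2411 to 7686 against 479 to 1447 (2.29, SE 0.17), and Kcnj8 at 119 to 198 against 25.8 to 52.6 (2.04, SE 0.13). Mylk (1.93, SE 0.13), Ccl19 (1.75, SE 0.21), Des (1.72, SE 0.18) and Vtn (1.51, SE 0.14) were higher, and Pdgfrb by 0.43 (SE 0.10, adjusted p 0.00382). Pi16 and Dpp4, which mark adventitial fibroblasts, were lower. Pi16 was at 3.67 to 15.1 against 325 to 1025 (-6.36, SE 0.22) and Dpp4 at 1.10 to 9.95 against 72.8 to 372 (-6.01, SE 0.25). Cd34 (-3.36, SE 0.16), Cd248 (-3.27, SE 0.15) and Ly6a (-2.85, SE 0.12) were lower too. Fibrillar matrix genes were lower for 19 of 23 and higher for 2.

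Against endothelial cells the CD31 libraries were used, since each CD45 library held only 6 to 18 such cells. They were cells with 3 or more UMIs of Pecam1 plus Cdh5 and none of Rgs5, Notch3 and Abcc9 or of the leukocyte genes. The same genes thus chose both sets in opposite directions, so genes that go with them can differ partly through the choice. The size of that part was not tested. Of 13577 genes, 4263 passed (31.4%; 12.8% higher, 18.6% lower), with an all-gene median of -0.20. Of 27 pericyte genes, 25 were higher and none lower, and of 23 contractile genes 22 were higher and 1 lower. Pdgfrb stood at 519, 537, 153, 247, 461 and 536 against 0.229 to 0.554 in endothelial cells (9.86, SE 0.22). Ndufa4l2 (11.00, SE 0.29), Des (10.44, SE 0.21) and Myl9 (10.27, SE 0.31) followed, and Kcnj8 was at 112 to 274 against 0.853 to 2.48 (6.59, SE 0.25). Notch pathway genes (receptors, ligands, cofactors and targets) split, with 6 of 14 higher and 6 lower. The target Heyl was at 23.5 to 112 against 0.0901 to 0.185. Interferon genes were lower for 30 of 37 and higher for 1.

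Day 3 was compared with vehicle over all chosen CD45 cells, summed per library, with genotype in the model. Of 13933 genes, 230 passed (1.65%), 128 higher (0.919%) and 102 lower (0.732%), and 3711 had an unadjusted p under 0.05. With 2 libraries per treatment the model has 2 residual degrees of freedom, and the call rests on both day 3 libraries: without the Cre-negative one 0 genes passed, and without the Cre-positive one 1. Dropping the vehicle Cre-negative library lowered the count below 230. Dropping the vehicle Cre-positive library or either day 7 library raised it, and dropping both day 7 libraries gave 1017. Of 29 inflammation genes 1 rose, the acute-phase gene Saa3, as did 7 of 20 cell cycle genes and 2 of 22 contractile genes. Median depth in these cells was higher in both day 3 libraries, and entry through Abcc9 alone was less common there, as given above. The part of neither was tested.

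Saa3, an acute-phase serum amyloid (chr7:46711998-46715700), stood at 6.19, 31.1, 551, 594, 5.12 and 27.5 CPM, and only the 2 day 3 libraries were high. The log2 change was 5.41 (SE 0.61, adjusted p 0.0257). Free RNA of the same libraries held it at 4.56, 2.34, 120, 236, 2.90 and 7.09. Fabp7, a fatty acid binder, stood at 20.4, 8.71, 203, 64.4, 10.5 and 8.56 (3.22, SE 0.32). Timp1, a protease inhibitor, stood at 118 and 165 at day 3 and at 22.7 to 29.7 in the other 4 libraries (2.45, SE 0.17), and Il33, an alarmin, at 436, 282, 1226, 844, 350 and 399 (1.64, SE 0.26). In each, both day 3 libraries lay above the other 4.

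Of 20 cell cycle genes, 7 rose and none fell, with a median of 2.62 against -0.02 over all genes. The list summed to 935, 582, 3127, 1897, 625 and 714 CPM in the chosen cells and to 2316, 1567, 4510, 4321, 1402 and 1832 in free RNA of the same libraries. Both were highest at day 3, and the part of free RNA was not tested. In a fit limited to genes at 2 or more times their free RNA level, 4 of 4158 passed at day 3 (0.0962%). Cenpa, the centromere histone, stood at 14.8, 6.09, 88.0, 41.5, 6.90 and 10.6 (2.78, SE 0.40), and Tubb5 differed by 1.47 (SE 0.20) and H2afz by 1.82 (SE 0.32). Mki67 was at 17.8, 0.497, 60.1, 58.4, 3.12 and 16.2, and did not pass (adjusted p 0.117). Of 22 contractile genes 2 rose, Tpm2 by 1.42 (SE 0.19) and Tagln by 1.24 (SE 0.20). Tagln at 762 and 426 on day 3 overlapped the 458 of the day 7 Cre-negative library, and it passed in 8 of 17 alternatives. The share of the high class moved with both genes. Within that class Tagln was at 1072 and 580 at vehicle and at 963 and 609 at day 3, a log2 change of 0.052 that did not pass. Within the low class it was at 130 and 103, then at 200 and 102, which did not pass either (0.33). Tpm2 within the classes differed by 0.63 and 0.75, and neither passed. The classes were cut on Acta2 plus Myh11 UMIs, and Tagln and Tpm2 both differ between them. A change of share and a change within cells therefore cannot be told apart here, and the part of each was not tested. None of 25 pericyte genes and none of 23 tone genes passed.

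Among the genes that fell, Igfbp3, which binds insulin-like growth factors (chr11:7206086-7213923), stood at 1052, 957, 125, 125, 920 and 1120, with no overlap (-2.91, SE 0.23, adjusted p 0.00993). Cyp2f2 fell from 107 and 194 to 8.61 and 21.2 (-3.28, SE 0.53), and Cr2, complement receptor 2, from 91.2 and 29.8 to 6.21 and 2.84 (-3.54, SE 0.45). Bmp4 stood at 27.4, 22.1, 6.06, 8.19, 24.9 and 23.0 (-1.69, SE 0.22) and Ebf2, a stromal transcription factor, fell by 1.77 (SE 0.22) on the log2 scale. Of 20 autophagy genes, Gabarapl1 alone passed, at 68.3, 69.4, 28.4, 35.3, 69.2 and 67.7 (-1.02, SE 0.16). Nrxn3 was led by 1 library, at 119 in vehicle Cre-positive and 0.748 to 6.72 in the other 5, and its log2 change was -4.67 with that library and -2.74 without it. Fos stood at 819, 1918, 223, 806, 1715 and 1034 and did not pass (adjusted p 0.153).

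**Figure D4:**
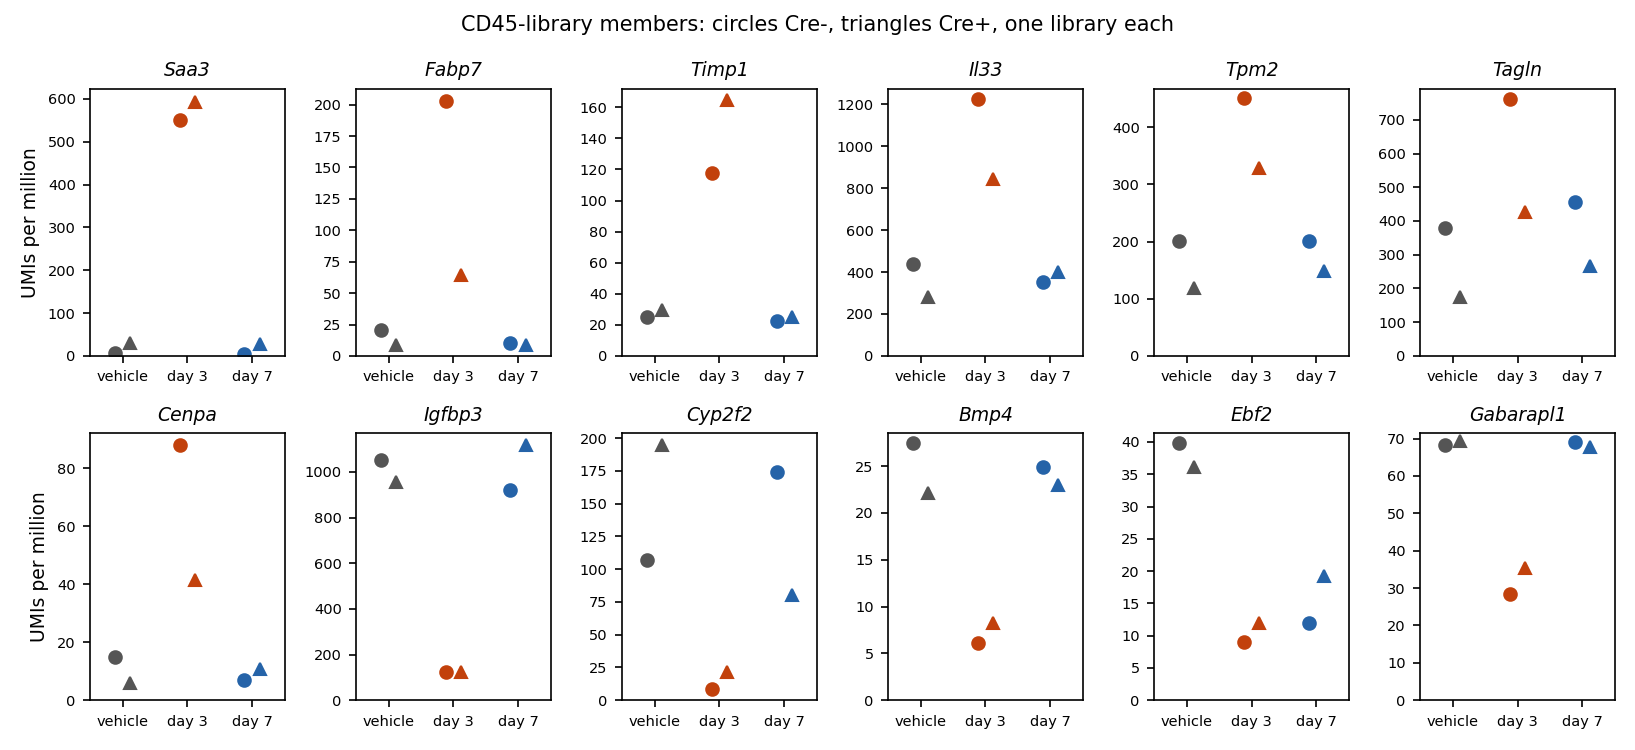
Levels of 12 genes in the Rgs5/Notch3/Abcc9 cells of the CD45 libraries, as CPM by treatment; circles are Cre-negative and triangles Cre-positive, 1 library each. Saa3, Fabp7, Timp1, Il33, Tpm2 and Cenpa are higher in both day 3 libraries than in the other 4, and Igfbp3, Cyp2f2, Bmp4 and Gabarapl1 are lower.

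In the Acta2/Myh11-high class alone 263 of 10927 genes passed at day 3 (2.41%), 97 higher and 166 lower, and 87 of the 263 were among the 230. In the low class alone 0 of 12216 passed. An unadjusted p under 0.05 in edgeR was found for 2562 genes in the high class and 2007 in the low class. These counts do not test a difference between the classes. In CD31, with 20 and 27 cells at day 3, 0 of 3503 genes passed. There Saa3 stood at 0, 0, 29.4, 615, 0 and 16.4 and Timp1 at 5.77, 5.43, 94.1, 172, 17.2 and 12.3, highest at day 3. The day 3 CD31 libraries also had the largest shares of cells with a Pdgfra UMI, as given above. The part of these cells and of free RNA was not tested.

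Whether the class difference itself changed at day 3 was tested as an interaction, which passed for 24 of 11938 genes (0.201%), 5 higher (0.0419%) and 19 lower (0.159%). Without the day 3 Cre-negative library 2 genes passed, without the day 3 Cre-positive one 9, and without any 1 of the other 4 between 84 and 124. DESeq2 called 7. None of the 6 genes named for this test was called under every alternative. Cr2 was at 209 and 177 in the high class of the vehicle libraries against 49.0 and 3.81 in the low class. At day 3 it was at 4.57 and 2.95 against 10.8 and 2.63 (log2 difference -3.87, SE 0.63). Cxcl13 in the low class was at 2820 and 1877 at vehicle and at 7976 and 4753 at day 3, and in the high class it was at 5493 and 5419, then at 7582 and 5721 (-1.06, SE 0.15). Mfge8 had the same form (-0.95, SE 0.14). At day 7, 2 genes passed (0.0168%), 1 in each direction (0.00838%).

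Day 7 against vehicle passed for 0 of 13933 genes in edgeR and 1 in DESeq2, with 238 at an unadjusted p under 0.05. The genotype difference passed for 0 of 13933 genes in edgeR and 2 in DESeq2, with 885 at an unadjusted p under 0.05. Among cells without a Pdgfra UMI 2 of 9038 genes passed for genotype (0.0221%; 0.0111% in each direction). Without the day 7 Cre-positive library 66 passed for genotype, without day 7 Cre-negative 40, without vehicle Cre-negative 8 and without both day 7 libraries 37. Atg12 stood at 32.3, 35.3, 28.2, 34.3, 33.1 and 33.1 in the CD45 cells, with overlapping groups (log2 difference 0.08, SE 0.14, adjusted p 0.893). In the CD31 cells it stood at 34.6, 76.0, 23.5, 51.7, 30.1 and 53.2, higher in each Cre-positive library. These values rest on 20 to 51 cells a library, and so on few Atg12 UMIs, and their difference was not tested. These reads come from the transcript's 3' end, so they need not show a deletion elsewhere in the gene.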

How the data were processed

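Single cells of mouse lymph node were measured in 12 libraries with 3' chemistry. Values are raw UMI counts for each gene in each barcode, deposited by the authors and made with Cell Ranger on mm10, per the submitters' processing notes (version 7.0.1; the file headers write 4). Library totals were 36724887 to 76186801 UMIs. Cells needed 1000 UMIs, 500 genes and at most 10% mitochondrial UMIs. An added feature, mRFP, in 4 libraries was left out. The cells and lists were chosen with earlier results of these data known.

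Counts were summed per library and class and tested with edgeR 4.0.16 (R 4.3.3; quasi-likelihood, TMM, filterByExpr, Benjamini-Hochberg at 0.05 over all genes tested). The 10 rule genes stayed in library sizes and out of tests. The main fits used the CD45 fraction, which held more of the chosen cells. Log2 standard errors are the change divided by the square root of F. Genes were named from the fixed lists and, by size, up to 10 per direction among those passing, at a mean of 20 CPM or more and of 1 sign in every library or pair, and for a few genes chosen after their values were seen. Shares have exact 95% intervals, and genotype was permuted exactly within treatment. Free RNA is the sum of barcodes under 100 UMIs. Doublets stayed in; 160 of the chosen cells (2.93%) were among the highest Scrublet scores (scanpy 1.11.5; 0.8% per 1000 barcodes), removed as an alternative. DESeq2 1.42.0 and further filters were tried as alternatives.

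On simulated counts, the class test found 96% of genes changed by 1 and 100% of those changed by 2 on the log2 scale (11936 genes), and the day 3 test 75% and 98% (14008 genes). False calls made up 4.5% and 3.89% of the genes called. Counts were drawn at a fixed, assumed dispersion, and only genes with higher counts were changed. For day 3 all libraries were given a common profile. These shares therefore do not give the power in the real libraries. Coordinates are from GENCODE M21 on GRCm38, which held 32158 of 32285 gene identifiers (99.6%).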

Additional observations from a re-analysis of the deposited data

Results flagged for a closer look

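The difference between the Acta2/Myh11-high and low classes changed with treatment by an interaction test in edgeR for 24 genes at day 3 and for 2 at day 7. At day 3 it was 2 genes without the Cre-negative and 9 without the Cre-positive library of that day, 84 to 124 without any 1 of the others, and 7 by DESeq2. At day 3 the class difference shifted by 1.83 on the log2 scale for Emp1, a membrane protein, and by 1.51 for Sparcl1, a matrix protein. It shifted by -3.87 for Cr2, by -2.21 for Ubd, a ubiquitin-like protein of antigen-presenting and stromal cells, by -1.06 for Cxcl13 and by -0.95 for Mfge8. At day 7 it shifted by -5.08 for Glycam1, a mucin of high endothelial venules, which stood at 14.2 and 113 CPM in the high class of the vehicle libraries and at 7.58 and 3.70 at day 7. In the low class it stood at 2.93 and 8.79, then at 2.70 and 17.6. Without the day 7 Cre-positive library the shift was -0.93 and did not pass. It passed in 5 of 8 alternatives, and DESeq2 called no gene at day 7 (44 at an unadjusted p under 0.05). Each treatment has 2 libraries here, and high endothelial genes were at 40.0 to 229 in the free RNA of these libraries. Its part was not tested.

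The added feature mRFP lay outside the comparisons. Among endothelial cells of the CD31 libraries, 6.14% at vehicle, 11.2% at day 3 and 6.82% at day 7 had an mRFP UMI with Cre, against 0 of 4437 in the Cre-negative library of day 7, the only Cre-negative library that lists it. Of the 97 chosen cells in the Cre-positive CD31 libraries none had one, which allows up to 3.09% of cells with an mRFP UMI by counting error and sets no limit on cells that express it.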

How the results depend on the processing

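Counts of called genes depended on the settings as follows. For the Acta2/Myh11-high class in CD45, 2334 of 11938 genes passed (19.6%). Cells without a Pdgfra UMI gave 157 of 5862 (2.68%), a class at 0.1% of UMIs 1034 of 11986 (8.63%), and genes at 2 times free RNA 965 of 3461 (27.9%). No replicate block gave 187 of 11938 (1.57%). The 2 CD31 libraries with 10 cells per class gave 187 of 1945 (9.61%) and the 6 CD31 libraries 229 of 1587 (14.4%). All libraries that reach 10 cells gave 1498 of 11326 (13.2%). Leaving out a library gave 1742 to 2190 genes, or 14.6% to 18.3%. The replicate block here is the library. The number of genes tested also varied below. For day 3, day 7 and genotype it was 13933, without the filter 22859, without Pdgfra 9038 and in leave-one-out fits 13223 to 14612. DESeq2 tested 13122 at day 3 and 13933 for day 7 and genotype. At day 3 the mitochondrial limit left 13833, doublets removed 13791, 2 times free RNA 4158, the low class 12216 and CD31 3503. For the interaction it was 11938, without the filter 22859 and in leave-one-out fits 11700 to 12237. For day 3 (230), DESeq2 gave 852, no low-count filter 1861, a 5% mitochondrial limit 121, doublets removed 414, no Pdgfra UMI 86, 2 times free RNA 4, the low class 0 and CD31 0, and leave-one-out 0 to 1110. For day 7 (0), DESeq2 gave 1, no filter 29 and leave-one-out 0 to 26. For genotype (0), DESeq2 gave 2, no filter 19, no Pdgfra UMI 2 and leave-one-out 0 to 66. For the interaction at day 3 (24), DESeq2 gave 7, no filter 142 and leave-one-out 2 to 124, and at day 7 (2) these were 0, 37 and 2 to 80. The comparisons with fibroblasts, endothelial cells and between fractions stayed within 1.5 times under each alternative run. The planned endothelial comparison in CD45 could not be run.

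The day 3 minus vehicle share of the high class in CD45 (44.8 points) was 46.1 with a 5% mitochondrial limit, 42.6 with a member threshold of 5, 26.3 thinned and 22.6 at 0.1% of UMIs. In CD31 (5.48) it was 12.3 with the mitochondrial limit, 11.1 thinned and 9.51 without a Pdgfra UMI. The day 7 difference in CD45 (-0.285) was 1.11 thinned, 0.357 at 0.1%, -1.62 at a member threshold of 5 (-9.50 Cre-negative, 6.25 Cre-positive) and 7.85 among cells without a Pdgfra UMI (3.84 Cre-negative, 11.9 Cre-positive), and the CD31 genotype difference in the share of chosen cells (0.00917) was -0.00306 at a threshold of 5.

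Signs turned for a few genes. In the class comparison, the fits with 2 and with 6 CD31 libraries gave Mfge8 -0.60 and -0.54, Clu -4.88 and -1.93, Ccl19 -2.08 and -0.48, Fos 0.35 and 1.03 and Angpt1 1.41 and 1.24. The 6-library fit gave Cxcl13 -2.49 and Tnc -0.67, the 2-library fit gave Klf4 0.56, and cells without Pdgfra gave Angpt1 0.26. Atg12 by genotype was -0.0015 without Pdgfra and Tpm2 at day 3 was -0.025 in CD31. The causes were not tested. Depth limits the CD31 values, with as few as 20 chosen cells in a library and 1 library per group.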

Other observations

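Markers of other cell types were summed in the chosen cells. In CD45 the 6 B cell markers summed to 110 to 195 CPM against 6590 to 22030 in free RNA, and the 7 T cell markers to 10.8 to 17.9 against 1263 to 2370. The 9 myeloid markers summed to 725 to 1257 against 1489 to 2718 in free RNA and 333 to 701 in B cells. The 6 lymphatic markers summed to 2126 to 6194 against 841 to 1874, and Ccl21a, which reticular stroma also expresses, made up 2124 to 6191 of it. The 8 epithelial and mesothelial markers summed to 282 in the vehicle Cre-positive library, 105 in the day 7 Cre-negative one and 0.158 to 3.77 in the other 4, against 7.71 to 156 in free RNA. In the chosen CD31 cells the 4 high endothelial markers summed to 32.8 to 3066 against 1470 to 15260 in free RNA.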
